A study of Rattus norvegicus with 84 samples.

Results

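The 7 genes Kel, Sptb, Slc4a1, Ank1, Epb42, Alas2 and Bpgm encode membrane, heme and glycolytic proteins of maturing red cells, and their transcripts were measured in extracellular vesicles (EVs) of rat plasma. They were taken by gene symbol, 1 row each, out of 18782 annotated genes in the deposited mRNA count table, whose rows hold 26637 features in all. The genes were chosen by their measured plasma levels, and which plasma comparison served for the choice was not recorded. Their plasma levels and plasma differences between groups, with any calls, are therefore given as descriptions without a p-value. Tests are given for brain-derived EVs, for other erythroid genes, for miRNAs, and for the relation of the 7 genes to miRNAs, whose levels had no part in the choice.

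The study followed adult male Sprague-Dawley rats of 8 to 12 weeks, genotype WT per the labels, whose middle cerebral artery was occluded for 90 min. At 3 days poststroke the hNSCs group received human neural stem cells through the carotid artery and the control group received saline. EVs were isolated from plasma and from the right hemisphere, the side of the occlusion, at 4, 10 and 31 days poststroke, and from a healthy group without stroke. Each of the 7 groups held 3 rats, so 21 rats gave 21 plasma and 21 brain mRNA libraries and the same number of miRNA libraries. Each rat was sampled at a single time, and the time points are different rats. The labels' extraction text speaks of serum EVs where the sample names say plasma. The transplanted cells are of human origin, and reads were assigned to the rat genome.

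Plasma mRNA libraries held 11878367 to 49824782 counts, of which 45.1% to 75.6% fell on annotated genes. Brain libraries held 13221461 to 37651652 counts with 3.18% to 51.9% on annotated genes, and the hNSCs group at 10 days was thinnest there, with as few as 569136 counts on annotated genes. Hemoglobin genes took 0.873% to 27.6% of annotated plasma counts and 0.0122% to 0.139% in brain. The sources were otherwise as labelled: the summed level of 4 neuron genes was 2546 to 10297 CPM (counts scaled to the depth of each library) in brain-derived EVs and 31.3 to 121 CPM in plasma, and the interneuron genes Gad2 and Sst were at 0 in all plasma libraries.

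As background, a red cell keeps its shape through a spectrin lattice under the membrane, which ankyrin and protein 4.2 tie to the anion exchanger. Spectrin beta (Sptb), ankyrin 1 (Ank1), protein 4.2 (Epb42) and the anion exchanger band 3 (Slc4a1) belong to this assembly, and Kel encodes the Kell blood group glycoprotein. Alas2 is the erythroid form of the first and rate-limiting enzyme of heme synthesis, and Bpgm makes 2,3-bisphosphoglycerate, which lowers the oxygen affinity of hemoglobin. Red cells lose their nucleus, yet reticulocytes, the young red cells that enter the blood, still carry such transcripts and shed vesicles as they mature.

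The 7 erythroid miRNAs that are compared below are shown here because they were read from separate libraries of the same rats. The mature sequences come from RefSeq (assembly GRCr8), except miR-486, which was taken from the deposited miRNA table, and the capitals mark the seed, bases 2 to 8.
miR-451-5p: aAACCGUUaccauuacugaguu
miR-144-3p: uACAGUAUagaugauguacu
miR-144-5p: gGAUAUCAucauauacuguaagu
miR-486: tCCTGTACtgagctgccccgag
miR-16-5p: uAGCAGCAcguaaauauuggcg
miR-92a-3p: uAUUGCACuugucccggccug
miR-363-3p: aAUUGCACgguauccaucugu
miR-451-5p (chr10:63459585-63459606, plus strand) and both arms of miR-144 (chr10:63459446-63459465 and chr10:63459409-63459431, plus strand) lie side by side and have 3 different seeds. The pair is known for high levels in erythroid cells, and miR-486 lies within the Ank1 gene. miR-92a-3p and miR-363-3p share the seed AUUGCAC and the others share none. RefSeq places miR-16-5p at chr2:155555343-155555364 on the plus strand.

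For the genes, RefSeq promoter windows (250 bases before to 50 after a start site, GRCr8) were matched for 5 of the 7, with no entry for Slc4a1 and Ank1. The windows were searched on both strands for GATA hexamers, meaning AGATAA or the form TGATAA on the one hand and AGATAG or the form TGATAG on the other, and for the CACC box CCNCNCCC, the letters that the erythroid factors GATA1 and KLF1 are known to read. A GATA hexamer was in 4 of the 5 windows, against 30.3% of 33469 promoters of the same length, and a CACC box in 2 of 5, against 46.3%. The Alas2 window is counted here, though its start site lies inside the gene. Among 45 promoters of the other erythroid genes listed below, 33.3% held a GATA hexamer and 77.8% a CACC box. A match is a description of letters and not a bound site. The 3 windows printed show a heme enzyme, a membrane skeleton gene and the glycolytic enzyme, with matches in capitals.
Alas2 promoter, chrX:22895200-22895499, plus strand: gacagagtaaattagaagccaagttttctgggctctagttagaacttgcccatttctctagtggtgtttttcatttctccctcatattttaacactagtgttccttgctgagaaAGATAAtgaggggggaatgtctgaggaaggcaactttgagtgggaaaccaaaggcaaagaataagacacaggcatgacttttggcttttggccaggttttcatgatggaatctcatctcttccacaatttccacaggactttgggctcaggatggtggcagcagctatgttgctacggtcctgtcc
Sptb promoter, chr6:101170229-101170528, minus strand: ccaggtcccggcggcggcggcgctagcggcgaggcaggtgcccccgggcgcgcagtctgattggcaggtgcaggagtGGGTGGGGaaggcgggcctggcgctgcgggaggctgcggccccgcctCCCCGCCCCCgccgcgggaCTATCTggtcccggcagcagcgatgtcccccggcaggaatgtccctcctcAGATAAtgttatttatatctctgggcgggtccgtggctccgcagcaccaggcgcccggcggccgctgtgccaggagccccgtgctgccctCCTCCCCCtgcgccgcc
Bpgm promoter, chr4:64107027-64107326, plus strand: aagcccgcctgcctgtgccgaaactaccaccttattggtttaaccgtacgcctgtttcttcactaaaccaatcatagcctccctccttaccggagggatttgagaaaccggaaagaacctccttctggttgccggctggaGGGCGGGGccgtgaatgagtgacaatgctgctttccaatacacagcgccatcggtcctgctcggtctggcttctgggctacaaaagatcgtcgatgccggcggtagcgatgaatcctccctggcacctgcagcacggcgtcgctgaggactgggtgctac
The Alas2 window held 1 GATA hexamer, starting at position -136 from its start site. That start site lies 4800 bases inside the gene, so the window is a promoter by its RefSeq entry only. It does not cover the outermost start of Alas2, and the hexamer is not read as one of the promoter at that start. Sptb held 2 GATA hexamers (at -107 and -57) and 4 CACC boxes, of which those starting at -126 and -124 overlap. Bpgm held a CACC box at -110 and no GATA hexamer, and Kel (-116) and Epb42 (-82) each held 1 GATA hexamer. The start site of the table can differ from the outermost end of the gene, by 4800 bases for Alas2, 524 for Kel, 468 for Bpgm, 111 for Sptb and 0 for Epb42, so other start sites of these genes were not searched.

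In plasma-derived EVs all 7 genes were lowest at 4 days poststroke and highest in the hNSCs group at 10 or 31 days. Per length, in median FPKM (fragments per kilobase of transcript, scaled to depth) over the 21 plasma libraries, Alas2 stood highest at 209, followed by Bpgm at 134, Slc4a1 at 39.4, Sptb at 12.5, Kel at 8.35, Epb42 at 6.36 and Ank1 at 5.70. The values that follow are CPM scaled by the trimmed mean of M-values (TMM), for rats 1, 2 and 3 of a group in this order. In plasma, fewer vesicles from a cell type and less RNA in each of them cannot be told apart. A value of 0 means that the gene is listed at 0, since the plasma tables hold few values below 10 counts.

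The spectrin gene Sptb was detected in every plasma library. Healthy rats held 234, 505 and 323 CPM, and control rats 63.0, 17.1 and 14.96 CPM at 4 days, 1191, 602 and 1134 CPM at 10 days and 241, 359 and 664 CPM at 31 days. In the hNSCs group it stood at 103, 16.9 and 126 CPM at 4 days, 2214, 1672 and 640.1 CPM at 10 days and 1851, 1477 and 1156 CPM at 31 days. All 6 libraries of 4 days lay below the lowest healthy library, and every 10-day library lay above the highest healthy one.

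Ank1, whose protein anchors spectrin to the anion exchanger, was the least ordered of the 7. Healthy rats gave 26.2, 25.6 and 107 CPM, and the control group gave 18.2, 75.5 and 0 CPM at 4 days, 277, 95.4 and 204 CPM at 10 days and 95.5, 79.0 and 119 CPM at 31 days. The hNSCs group gave 84.0, 22.0 and 7.29 CPM at 4 days, 478, 409 and 143 CPM at 10 days and 396, 204 and 227 CPM at 31 days. The healthy and 4-day groups overlapped for this gene, and control rat 3 at 4 days was listed at 0.

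Epb42, which encodes protein 4.2 and binds both ankyrin and band 3, stood at 47.0, 23.9 and 66.1 CPM in the healthy group. At 4 days it was listed at 0 in 4 of the 6 libraries, with 2.26 CPM in control rat 2 and 7.32 CPM in rat 3 of the hNSCs group. The control group reached 90.9, 140.4 and 67.9 CPM at 10 days and 24.9, 56.1 and 97.8 CPM at 31 days, and the hNSCs group 278, 315 and 60.9 CPM at 10 days and 361, 113 and 304 CPM at 31 days. Rat 3 of the hNSCs group at 10 days lay below all 3 control rats of that day, while rats 1 and 2 lay above them.

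Slc4a1, the chloride and bicarbonate exchanger of the red cell, was the highest of the membrane genes per length. It stood at 321, 126 and 624 CPM in healthy rats, and in the control group at 62.9, 35.8 and 0 CPM at 4 days, 1981, 1200 and 1671 CPM at 10 days and 311, 584 and 846 CPM at 31 days. The hNSCs group gave 95.3, 6.61 and 37.2 CPM at 4 days, 3801, 3249 and 1008 CPM at 10 days and 2852, 1754 and 2190 CPM at 31 days. The control groups of 10 and 31 days did not overlap, with every 10-day library above 846 CPM.

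Kel, the Kell glycoprotein gene, was listed at 0 in 4 of the 6 libraries of 4 days. Healthy rats gave 9.85, 10.1 and 64.6 CPM, all 3 control rats at 4 days were listed at 0, and the hNSCs group at 4 days gave 0, 2.16 and 3.58 CPM. Control rats gave 163, 140 and 130 CPM at 10 days and 56.9, 65.8 and 164 CPM at 31 days, and hNSCs rats 465, 320.0 and 120 CPM at 10 days and 119, 229 and 335 CPM at 31 days. Every library of 4 days lay under the lowest healthy value of 9.85 CPM.

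Alas2, the heme synthesis gene, had the highest level of the 7. It stood at 942, 504 and 1297 CPM in healthy rats, and in the control group at 72.6, 112 and 92.6 CPM at 4 days, 2883, 2701 and 3010.1 CPM at 10 days and 1075, 1581 and 2631 CPM at 31 days. In the hNSCs group it stood at 182, 42.1 and 176 CPM at 4 days, 5432, 5212 and 1813 CPM at 10 days and 6223, 3892 and 5360 CPM at 31 days. The control group at 10 days was the tightest relative to its mean, and all 3 of its libraries lay above those of the control group at 31 days.

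Bpgm, the enzyme of the glycolytic side path, had a like order. Healthy rats gave 378, 296 and 766 CPM, and control rats gave 146, 155 and 92.6 CPM at 4 days, 1526, 1417 and 1573 CPM at 10 days and 466, 731 and 1346 CPM at 31 days. The hNSCs rats gave 58.8, 66.6 and 137 CPM at 4 days, 2846, 2261 and 865 CPM at 10 days and 2950.4, 1846 and 2260.3 CPM at 31 days. For each of Sptb, Slc4a1, Kel, Alas2 and Bpgm, rat 3 of the hNSCs group at 10 days was the lowest of its group, as it was for Ank1 and Epb42.

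**Figure D1:**
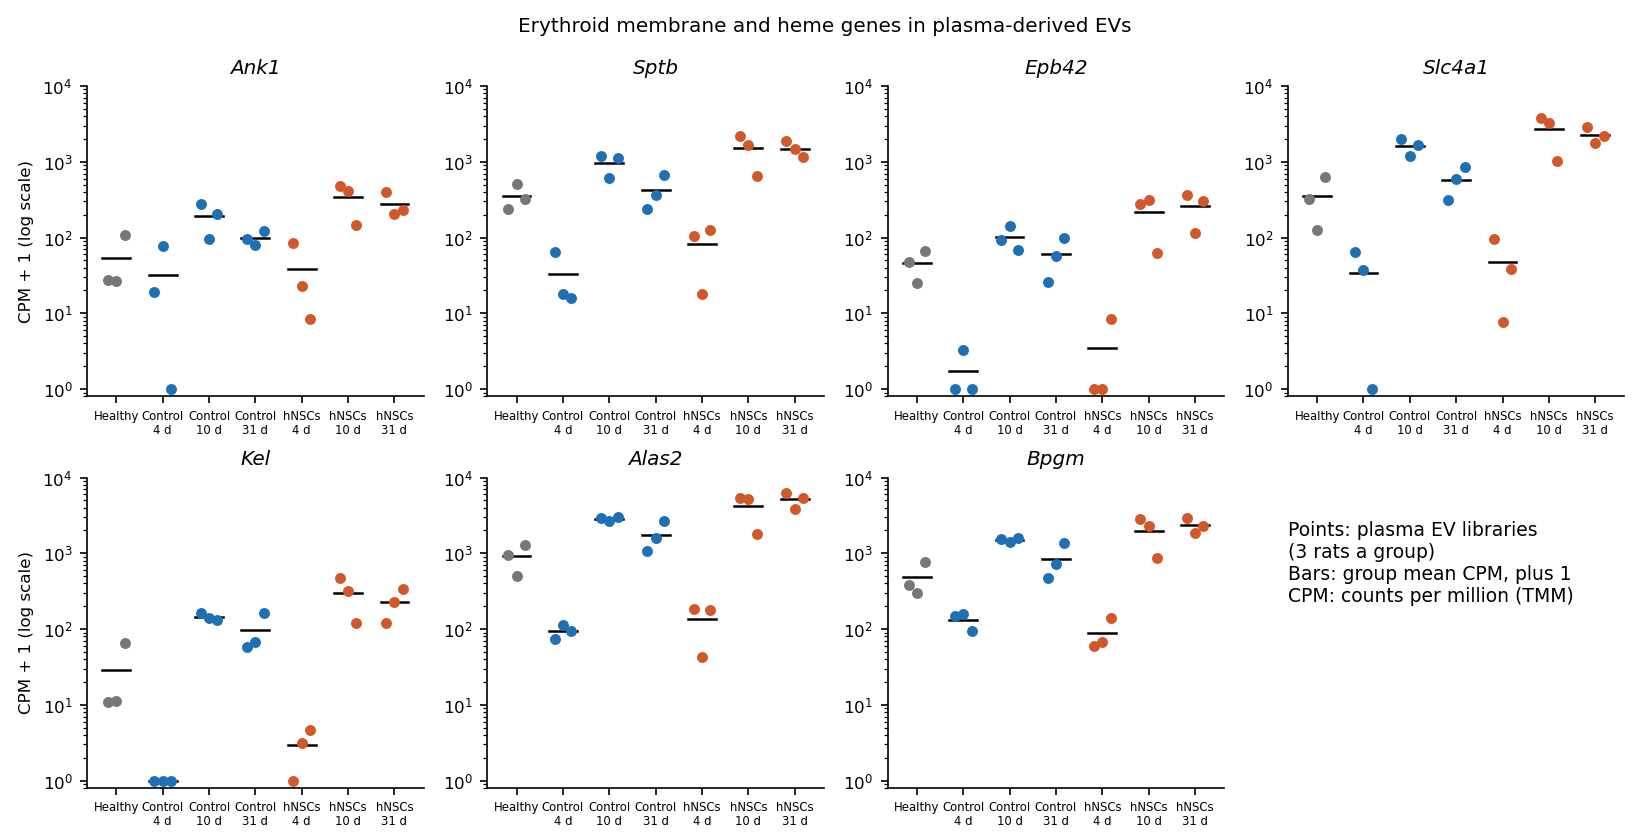
Level of each of the 7 genes in the 21 plasma libraries, in TMM-scaled CPM plus 1 on a log axis, with 1 point for each rat and a bar at the group mean. The 4-day groups lie lowest for every gene, and the summed level of the 7 genes there is 156 to 524 CPM against 1490 to 3247 CPM in the healthy group.

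Ordered by group mean, the hNSCs groups of 10 and 31 days came first for every gene, then the control groups of 10 and 31 days, the healthy group and the 4-day groups. Neighbours in this order mostly overlapped. The healthy group lay apart from the next lower 4-day group for all genes but Ank1, and the control group of 10 days lay apart from that of 31 days for Slc4a1, Alas2 and Bpgm. Alas2, for example, had means of 5158 ± 1179 CPM and 4153 ± 2029 CPM (SD, n = 3) in the hNSCs groups of 31 and 10 days, 2865 ± 155 CPM in the control group of 10 days, and 914 ± 397 CPM in the healthy group.

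The groups were then compared by 1 edgeR quasi-likelihood fit of all 7 groups over 14720 plasma genes, and a gene was called when its Benjamini-Hochberg adjusted p over all genes was under 0.05 and its change was over 1.5-fold. For the 7 genes the calls, like the log2 fold changes with their standard errors (SE), are descriptions from which nothing is read. How many of all genes had groups without overlap was not counted. Nothing is therefore read from counts without overlap, for the 7 genes or for the lists below. Counts of genes at an unadjusted p under 0.05, in plasma and in brain, are likewise given without the share of all genes, and nothing is read from them. Comparisons with the same control or healthy libraries share those samples. The first 7 comparisons were laid out from the design, and that of the hNSCs group between 10 and 4 days was added after the data were seen.

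Control rats at 4 days were set against healthy rats to describe the acute phase of stroke, and 6 of the 7 genes were lower in every stroke library. Control rats also received saline through the carotid artery at 3 days, and healthy rats had no stroke. Stroke and these procedures therefore cannot be told apart against the healthy group at any day. Alas2 stood 3.31 ± 0.54 (SE) below the healthy group on the log2 scale, a 9.91-fold lower level. The log2 fold changes were -3.48 ± 0.70 for Sptb, -3.44 ± 1.25 for Slc4a1, -5.93 ± 1.66 for Epb42 and -1.87 ± 0.49 for Bpgm. Kel was listed at 0 in all 3 control libraries, for which no fold change is given, and Ank1 overlapped at -0.76 ± 1.18. Kel and Alas2 met the call rule, beside 0.0611% of all genes called lower. DESeq2 called 5 of the 7 with 6.16% of genes called, and a fit of only the 2 groups called none of the 7 and 0% of genes. Without control rat 2 or 3 of 4 days 1 of the 7 was called.

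Between 10 and 4 days in the control group all 7 genes were higher at 10 days in every library. The carotid injection at 3 days poststroke came shortly before the 4-day sampling in both the control and hNSCs groups. Time since stroke and time since this procedure therefore cannot be told apart between these days. The log2 fold changes were 4.96 ± 0.58 for Alas2, 3.52 ± 0.52 for Bpgm, 4.94 ± 0.75 for Sptb, 5.62 ± 1.38 for Slc4a1, 7.05 ± 1.75 for Epb42 and 2.62 ± 1.24 for Ank1, and Kel went from 0 in each library to a mean of 144 CPM. Kel, Sptb, Alas2 and Bpgm met the call rule, beside 0.367% of all genes called higher. DESeq2 called all but Ank1, with 10.2% of genes called. The median of the 7 genes was 4.96, against -0.06 over all genes tested.

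In the hNSCs group the rise between the same days was of like size for the 7 genes, at a median of 4.96 against 0.09 over all genes. The log2 fold changes were 7.28 ± 1.21 for Kel, 4.20 ± 0.73 for Sptb, 4.96 ± 0.58 for Alas2, 4.51 ± 0.54 for Bpgm, 6.41 ± 1.68 for Epb42 and 3.18 ± 1.27 for Ank1, and all 7 had groups that did not overlap. Kel, Sptb, Alas2 and Bpgm met the call rule here too, beside 0.476% of genes called higher. DESeq2 called all but Ank1 with 3.91% of genes called, while the fit of only these 2 groups called none, with 0% of genes called.

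Against the healthy group, the control group at 10 days was higher for 6 of the 7 genes in every library, with Ank1 overlapping. Kel stood at a log2 fold change of 2.35 ± 0.96, Slc4a1 at 2.18 ± 1.18, Alas2 at 1.65 ± 0.51 and Bpgm at 1.65 ± 0.48, then Sptb at 1.46 ± 0.65 and Epb42 at 1.13 ± 1.34. None met the call rule, as 0% of all genes did with edgeR, while DESeq2 called Alas2 and Bpgm with 8.25% of genes called. At 31 days the control group overlapped with the healthy group for all 7 genes, at a median of 0.82. Without control rat 3 of 31 days the median was 0.33, and without healthy rat 3 it was 1.33. None of the 7 was called by edgeR (0% of genes) or by DESeq2 (4.48% of genes).

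The hNSCs group was also set against the control group of the same day. The study's supplement describes the cells as given in glucose buffer and the control rats as given saline, so cells and vehicle cannot be told apart. At 4 days the groups overlapped for all 7 genes, with log2 fold changes of 1.38 ± 0.65 for Sptb, 0.53 ± 0.50 for Alas2 and -0.58 ± 0.47 for Bpgm. None met the call rule, beside 0.00679% of genes, and DESeq2 called Kel with 5.93% of genes called. At 10 days the groups overlapped again, with log2 fold changes of 1.06 ± 0.92 for Kel and 0.40 ± 0.47 for Bpgm. The median was 0.73. Without rat 1 of the hNSCs group it was 0.40, and without rat 3 it was 1.12. Neither edgeR (0% of genes) nor DESeq2 (7.76% of genes) called any of the 7.

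At 31 days 6 of the 7 genes were higher in every hNSCs library than in every control library, with Kel overlapping at 1.25 ± 0.93. The log2 fold changes were 1.55 ± 0.51 for Alas2, which is 2.93-fold, 1.47 ± 0.48 for Bpgm, 1.83 ± 0.66 for Sptb, 1.96 ± 1.18 for Slc4a1, 1.49 ± 1.19 for Ank1 and 2.12 ± 1.38 for Epb42. None met the call rule with edgeR, nor did any other gene (0%), and DESeq2 called Alas2, Bpgm and Sptb with 11.3% of genes called. The median of 1.55 stood against -0.10 over all genes.

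**Figure D2:**
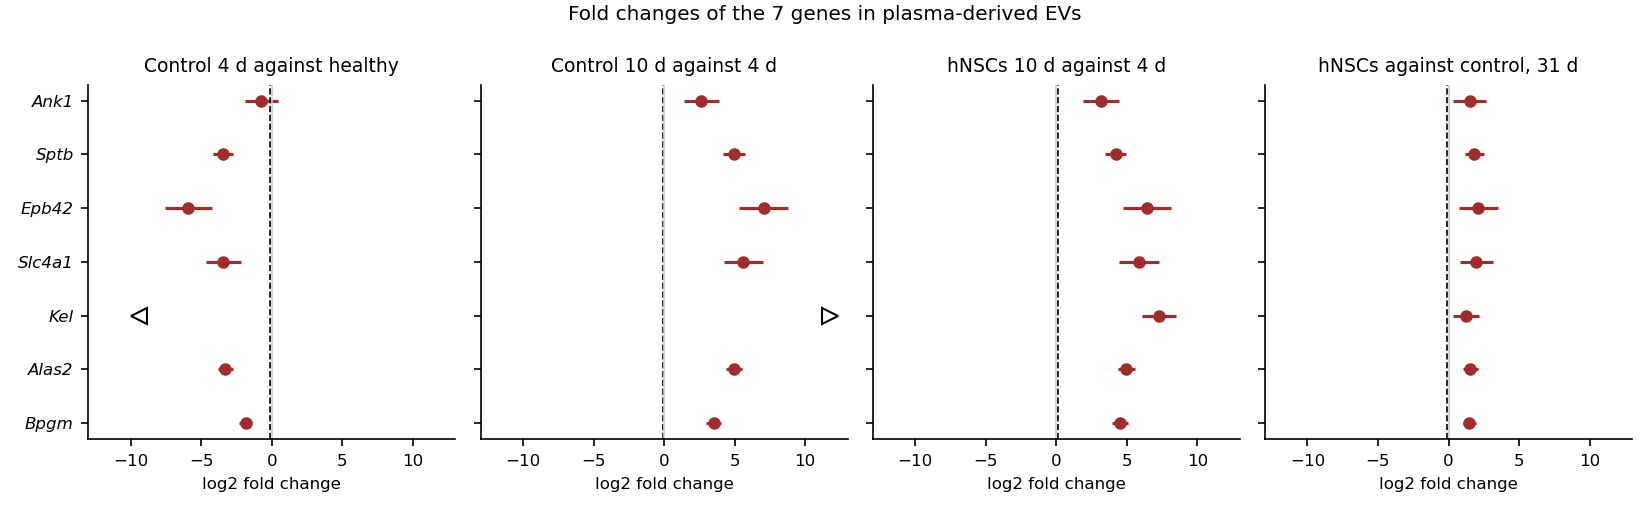
Log2 fold change with its standard error (bars) for each of the 7 genes in 4 of the plasma comparisons, from the edgeR fit, with a grey line at 0, a dashed line at the median over all genes tested and open triangles for Kel where 1 group was listed at 0 and was set at a floor of 3 counts, so that their place is no estimate. The points lie lowest for 4 days against healthy (median -3.44) and highest for 10 against 4 days in the control and hNSCs groups (median 4.96 in both).

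The other genes of the red cell were followed through 4 lists that do not hold the 7 genes: membrane (15 genes), heme and iron (15), red cell enzymes (10) and erythroid regulators (15), of which 54 of 55 were tested in plasma. Between 10 and 4 days in the control group 11 of the 54 rose and none fell, 29 had an unadjusted p under 0.05, and 29 were higher in every library. Their median log2 fold change was 1.90 against -0.06 over all genes. DESeq2 called 24 higher and 2 lower. Of the 54 genes called higher in this comparison, 4 were among the 7 genes described here, 11 were on these lists, 7 were hemoglobin genes and 32 were on none. Every adjusted p for these lists is from edgeR's quasi-likelihood test with Benjamini-Hochberg adjustment over all genes tested. These genes were tested in the plasma libraries whose values served to choose the 7 genes, and the lists were set with earlier results known. Their tests are therefore not independent of that choice.

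On the membrane list 3 of 14 rose between 4 and 10 days in the control group. Epb41, which ties spectrin to actin, rose by 2.94 ± 0.50 (adjusted p = 0.0049) and the adducin gene Add2 by 5.01 ± 0.84 (adjusted p = 0.00447), both on the log2 scale. The median of this list was 3.11.

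On the heme and iron list 1 of 15 rose, Fech, which encodes ferrochelatase, the enzyme that inserts iron in the last step of heme synthesis. It went from a mean of 39.4 to 976 CPM, a log2 fold change of 4.63 ± 0.56 (adjusted p = 0.000272). The median of this list was 1.46, and none of the other 14 passed. Urod, an enzyme of an intermediate step named here after its values were seen, stood at 2.16 ± 0.58 (adjusted p = 0.175). On the red cell enzyme list 3 of 10 rose: carbonic anhydrase Car2 by 3.32 ± 0.47 (adjusted p = 0.00117), Hemgn by 3.61 ± 0.56 (adjusted p = 0.0018) and catalase, Cat, by 1.77 ± 0.37 (adjusted p = 0.0315). Hemgn, like Ahsp on the same list, does not encode an enzyme. Cat was called no longer when any 1 of the 6 libraries was left out, at 1.58 to 1.98.

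Of the erythroid regulators 4 of 15 rose. Klf1, the factor that activates many red cell genes including the beta-globin gene, was listed at 0 in all 3 libraries of 4 days and had a mean of 68.9 CPM at 10 days (adjusted p = 0.00512). Trim10 was likewise listed at 0 at 4 days and had a mean of 81.7 CPM at 10 days (adjusted p = 0.00145). Ube2o, a ubiquitin enzyme known for clearing proteins from reticulocytes, rose by 4.88 ± 0.57 (adjusted p = 0.000272), and Bnip3l, which acts in the removal of mitochondria from reticulocytes, by 1.89 ± 0.40 (adjusted p = 0.0346). Bnip3l was called no longer without rat 1 or 3 of 10 days or any 1 of the rats of 4 days, at 1.62 to 2.00. All 11 of these genes had groups that did not overlap.

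In the hNSCs group 15 of the 54 rose between 4 and 10 days and none fell, at a median of 2.17, with 28 at an unadjusted p under 0.05 and 32 higher in every library. DESeq2 called 22, all higher. The membrane list gave 4 of 14, the heme list 2 of 15, the enzyme list 6 of 10 and the regulators 3 of 15. The mitochondrial iron carrier Slc25a37 rose by 5.26 ± 0.95 (adjusted p = 0.00767) and Fech by 4.23 ± 0.55 (adjusted p = 0.00025). Add2 rose by 4.39 ± 0.82 (adjusted p = 0.00987) and Epb41 by 2.35 ± 0.49 (adjusted p = 0.0265). Epb41 was called no longer without rat 1 or 2 of either day (2.04 to 2.27), Add2 without rat 2 of 4 days (3.96) and Slc25a37 without rat 1 of 4 days (5.19).

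On the enzyme list, Car2 rose in the hNSCs group by 3.90 ± 0.48 (adjusted p = 0.000143), Hemgn by 3.78 ± 0.57 (adjusted p = 0.00105) and peroxiredoxin 2, Prdx2, by 3.47 ± 0.53 (adjusted p = 0.0013). Cat rose by 1.92 ± 0.37 (adjusted p = 0.0134), a call lost without rat 1 or 2 of 10 days or rat 2 of 4 days (1.73 to 1.79). The regulators that rose were Ube2o by 3.30 ± 0.53 (adjusted p = 0.00212), Bnip3l by 2.95 ± 0.41 (adjusted p = 0.000526) and the nuclear export gene Xpo7 by 3.34 ± 0.59 (adjusted p = 0.00617). The fit of only these 2 groups called none of the 54.

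In control rats of 4 days, 3 of the 54 fell against healthy rats and none rose, at a median of -1.09, with 13 at an unadjusted p under 0.05. Trim10 was listed at 0 in all 3 control libraries against a mean of 20.03 CPM in the healthy group (adjusted p = 0.0164). Ube2o fell by 3.33 ± 0.53 on the log2 scale (adjusted p = 0.0149). Leaving out any 1 of the control rats of 4 days ended the calls of Trim10 and Ube2o, with Ube2o at -3.39 to -3.28. DESeq2 called 9 lower, while the fit of only these 2 groups called none. Fech (-2.50 ± 0.51, adjusted p = 0.0885 with edgeR), Gpx1 (0.44), Cat (-0.54) and Tmem14c (-0.03) did not pass.

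In the other 5 comparisons edgeR called none of the 54. The control group at 10 days against healthy had 20 genes at an unadjusted p under 0.05 and a median of 1.29, with Fech at 2.13 ± 0.50 (adjusted p = 0.636 with edgeR) and Prdx2 at 1.42. At 31 days there were 6 such genes and a median of 0.43. The hNSCs group against control had 8 such genes at 4 days (median 0.40) and 2 at 10 days (median 0.51).

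At 31 days the hNSCs group against control had 18 of the 54 genes at an unadjusted p under 0.05, a median of 1.15 and 26 genes higher in every library. Epb41 stood at 1.51 ± 0.48 (adjusted p = 0.468), Fech at 1.66 ± 0.49 (adjusted p = 0.46) and Bnip3l at 1.26 ± 0.39 (adjusted p = 0.462), all with edgeR. Prdx2 stood at 1.17 ± 0.49 and Ube2o at 1.23 ± 0.49. For hNSCs against control at 31 days DESeq2 called 5 of the 54 higher and 4 lower, with 11.3% of all genes called in either direction. It called 3 higher at 4 days, with 5.93% of all genes called, and 2 higher at 10 days, with 7.76%. For control rats against healthy it called 12 higher and 2 lower at 10 days, with 8.25% of all genes called, and 2 higher at 31 days, with 4.48%. The difference between the hNSCs and control groups was also compared between each pair of days by an interaction term, and 0 of 61 erythroid genes, the hemoglobin genes included and the 7 left out, passed in any of them with edgeR. Of all 14720 genes 1 passed between 4 and 10 days (0.00679%), 1 between 4 and 31 days (0.00679%) and 0 between 10 and 31 days (0%). At an unadjusted p under 0.05 there were 11, 17 and 5 of the 61.

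**Figure D3:**
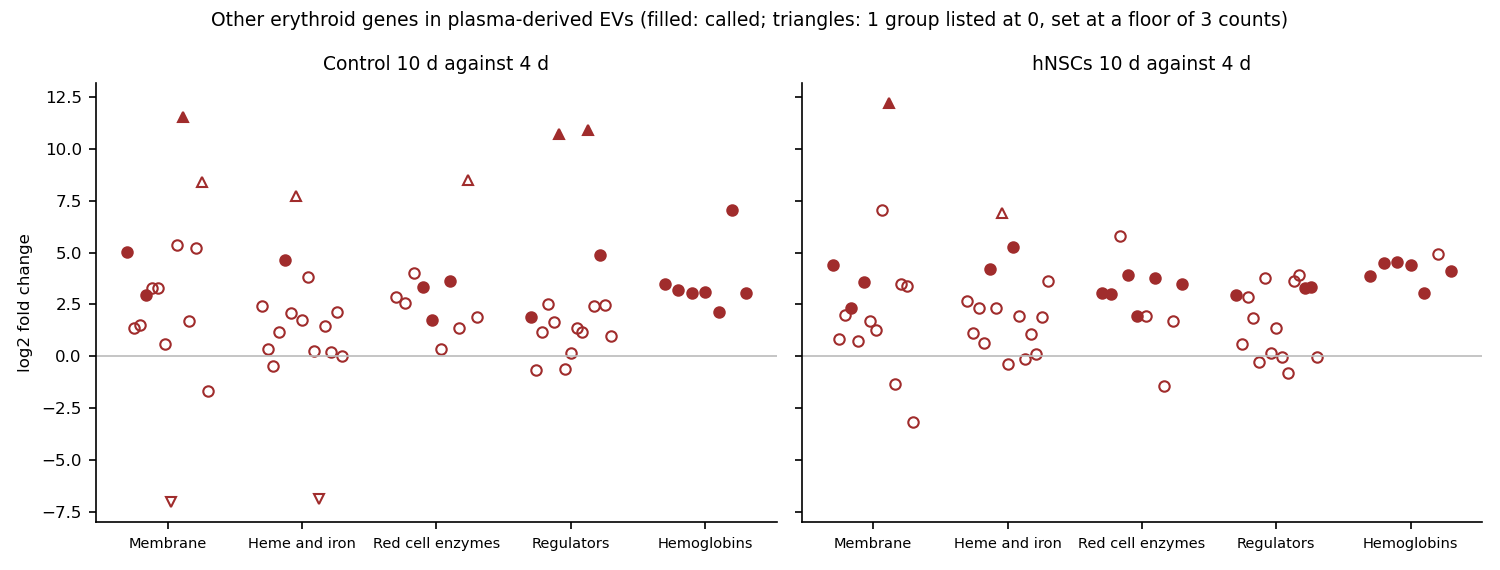
Log2 fold changes of the 4 erythroid lists and the hemoglobin genes for 10 against 4 days in plasma, in the control group and in the hNSCs group, with 1 point for each gene, filled where edgeR called it, and triangles where 1 group was listed at 0 and was set at a floor of 3 counts. The list medians in the control group are 3.11 for membrane, 1.46 for heme, 2.71 for enzymes, 1.64 for regulators and 3.10 for hemoglobin genes.

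Hemoglobin genes moved with the 7 genes. All 7 hemoglobin genes tested rose between 4 and 10 days in the control group and 6 of 7 in the hNSCs group with edgeR, Hba2 by 3.06 and 4.57 on the log2 scale. Their summed level was 14411 to 25535 CPM in the control group at 4 days and 168690 to 175535 CPM at 10 days. Reads of these near-identical copies may be split between them, so the single hemoglobin genes are uncertain. A fit without the hemoglobin genes called 44 genes higher and 3 lower for 10 against 4 days in the control group. With them it called 54 higher, 7 of which are hemoglobin genes, and 3 lower, and with library size as the only scaling 41 higher and 5 lower. With library size only, the median over all genes moved from -0.06 to -0.42 and that of the 7 genes from 4.96 to 4.60.

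Of the platelet, T cell, neutrophil, monocyte and liver lists, edgeR called 0 genes in any plasma comparison, with 0 to 3 of each list at an unadjusted p under 0.05, and DESeq2 called 0 to 2 of each. Over the 21 plasma libraries 12 platelet genes summed to 864 to 23582 CPM and 6 liver genes to 997 to 33815 CPM, with wide overlap between groups. At 4 days the control group held 524 to 2239 CPM of 7 neutrophil genes against 149 to 244 CPM in the healthy group, and 19.2 to 91.0 CPM of 5 T cell genes against 219 to 358 CPM. Monocyte genes stood at 1213 to 4895 CPM there against 247 to 1303 CPM. The part of these sources and of hemoglobin in the results for the 7 genes was not tested.

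Brain-derived EVs came from other libraries and were tested. Kel was listed at 0 in 19 of 21 brain libraries, with 1.16 and 2.30 CPM in rats 1 and 3 of the hNSCs group at 31 days, and Epb42 was listed at 0 outside that group, where it stood at 0.919, 1.57 and 1.09 CPM. Both fell under the filter on low counts, and 5 of the 7 genes were tested. Slc4a1 reached at most 25.6 CPM and Alas2 at most 15.97 CPM, and both were listed at 0 in all 6 brain libraries of 4 days. The summed level of the 7 genes was 397 to 812 CPM, most of it Sptb and Ank1, which neurons are also known to express.

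Sptb stood at 521, 558 and 526 CPM in healthy brain. The control group gave 275, 307 and 393 CPM at 4 days, 465, 289 and 351 CPM at 10 days and 482, 538 and 512 CPM at 31 days, and the hNSCs group 322, 352 and 279 CPM, 498, 489 and 353 CPM, and 417, 531 and 495 CPM at the same days. All control libraries of 4 days lay below the healthy ones, at a log2 fold change of -0.72 ± 0.24 (adjusted p = 0.14 with edgeR). At 10 days the difference was -0.54 ± 0.24 (adjusted p = 0.333 with edgeR). The hNSCs group between 10 and 4 days was at 0.49 ± 0.24 (adjusted p = 0.302 with edgeR) without overlap. None of these passed.

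Ank1 was at 70.9 to 267 CPM over the brain libraries. Bpgm was at 0 to 66.6 CPM, with 12.1, 0 and 0 CPM in the hNSCs group at 10 days and 26.4, 24.2 and 37.2 CPM in its control group. That difference was -2.66 ± 1.26 on the log2 scale (adjusted p = 0.367 with edgeR), and without rat 1 of the hNSCs group it was called, at a fitted value of -10.26 that depends on the fit because the other 2 libraries were at 0. The hNSCs brain libraries of 10 days are those with the fewest annotated counts.

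With edgeR none of the 5 genes was called in any of the 8 brain comparisons. Of all brain genes 0.861% were called for the control group against healthy at 4 days, 0.572% at 10 days and 0.00689% at 31 days, 0.0758% for 10 against 4 days in the hNSCs group, and 0% for 10 against 4 days in the control group and for hNSCs against control at 4, 10 and 31 days. At an unadjusted p under 0.05 there were 2 of the 5 at 4 days against healthy, 1 at 10 days, 0 at 31 days, 2 for 10 against 4 days in the control group and 3 in the hNSCs group, and 0, 1 and 0 for hNSCs against control at 4, 10 and 31 days. DESeq2 called Slc4a1 and Sptb lower at 4 days against healthy (5.86% of genes called) and Slc4a1 higher at 10 against 4 days in the control group (0.579%) and the hNSCs group (6.54%). Slc4a1 was listed at 0 in 2 of 3 brain libraries of each 10-day group and in 1 of 3 healthy ones. Its DESeq2 calls therefore rest on few counts, and at 10 days on 1 library of each group.

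On FPKM values, limma called Ank1, Bpgm and Sptb higher in control rats of 31 days than in healthy rats, beside 66.1% of all genes called, and turned the direction of Sptb and Ank1. The share of counts on annotated genes was 29.9% to 51.9% in the 31-day brain libraries and 7.11% to 20.9% in the healthy ones. Of the 40 genes of the 4 lists tested in brain, edgeR called 1, the peroxidase gene Gpx1, higher in control rats of 10 days than in healthy rats at 4.81 ± 1.10 on the log2 scale (adjusted p = 0.0473). Gpx1 also serves cells other than red cells, and its call was lost without control rat 2 or 3 of 10 days or any healthy rat, at 2.99 to 5.17. In the other 7 brain comparisons 0 of the 40 were called, with 0 to 10 at an unadjusted p under 0.05.

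Hemoglobin genes were called in brain by edgeR in 1 comparison. Between 10 and 4 days in the hNSCs group Hba2 rose by 3.50 ± 0.39 (adjusted p = 7.28e-05 with edgeR) and Hba1 by 3.77 ± 0.68 (adjusted p = 0.0268 with edgeR), 2 of 6 tested. Hba1 was called no longer without any 1 of the rats of 4 days, at 3.49 to 4.10. Their list summed to 965 to 1460 CPM at 10 days against 130 to 257 CPM at 4 days. The interaction terms between days passed for 0 of 51 erythroid genes in brain with edgeR, beside 0% of all genes, and 2 to 7 of the 51 had an unadjusted p under 0.05.

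**Figure D4:**
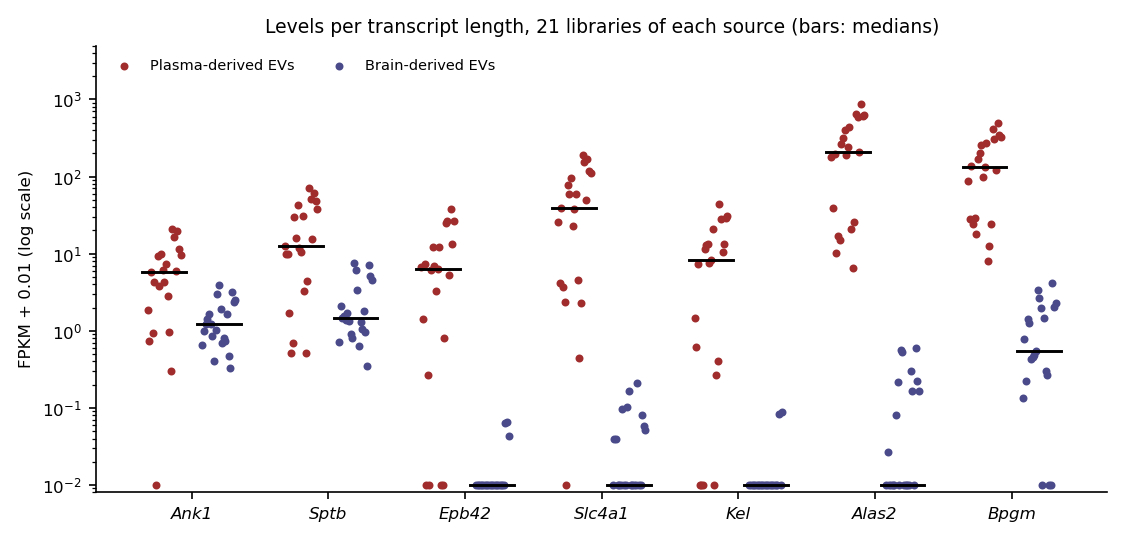
Level of the 7 genes in plasma-derived and brain-derived EVs, in FPKM plus 0.01 on a log axis, with 1 point for each of 21 libraries per source and a bar at the median. Kel and Epb42 sit at the floor in most brain libraries, and Sptb has medians of 12.5 FPKM in plasma and 1.44 FPKM in brain. In CPM the medians of Sptb are 505 in plasma and 465 in brain, so FPKM and CPM do not give the same difference between the sources.

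The 7 genes varied together over the plasma libraries. Pearson's r of log2(CPM + 1) was 0.75 to 0.97 over the 21 pairs of genes and 21 libraries, a range set in part by the low 4-day libraries, which lie apart. With values centred within groups it was 0.07 to 0.84, with a median of 0.53, so much of the shared pattern lay between groups. Slc4a1 and Ank1 (0.80) and Epb42 and Bpgm (0.84) were close within groups, and Kel and Ank1 (0.07) were not. The points share library, depth and scaling, and r is given as a description.

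The 10 genes most like the 7, by mean r over the 7 genes and 21 plasma libraries, were LOC689064 (0.936), Car2 (0.934), Add2 (0.934), Ybx3 (0.933), Hba1 (0.930), LOC100134871 (0.929), Hba2 (0.928), Hbb (0.927), Fam46c (0.927) and Slc25a39 (0.926). Centred within groups their mean r was 0.577 to 0.694. Of these 10, 6 and of the first 100, 26 were on the erythroid or hemoglobin lists. The median over 14713 genes was -0.0385, and over the 54 genes of the 4 lists 0.606.

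The miRNA libraries of the same plasma EVs held 309 tested miRNAs, 7 of them erythroid. miR-451-5p stood at 1469, 773 and 3103 CPM in healthy rats, and in control rats at 737, 1295 and 261 CPM at 4 days, 1027, 1864 and 2203 CPM at 10 days and 465, 468 and 3219 CPM at 31 days. The hNSCs group gave 695, 240.4 and 309.9 CPM at 4 days, 5110, 2921 and 653 CPM at 10 days and 3087, 1595 and 780 CPM at 31 days. Rat 3 of the hNSCs group at 10 days was lowest of its group here as it was for the 7 genes, and the hNSCs and control groups overlapped at each of the 3 days.

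With edgeR none of the 7 erythroid miRNAs was called in any plasma comparison. For 4 days against healthy miR-451-5p was at -1.22 ± 0.82 (adjusted p = 0.468 with edgeR) and miR-16-5p at -1.23 ± 0.53 (adjusted p = 0.237 with edgeR), and the 7 had a median of -0.99 against -0.0086 over all miRNAs. For 10 against 4 days the control group had miR-451-5p at 1.15 ± 0.82 (adjusted p = 0.387 with edgeR) and miR-92a-3p at 1.03 ± 0.46 (adjusted p = 0.197 with edgeR). The hNSCs group had miR-451-5p at 2.80 ± 0.86 (adjusted p = 0.237 with edgeR), miR-144-3p at 2.65 ± 0.90 and miR-144-5p at 2.91 ± 0.94. Of the pair that shares a seed, miR-363-3p stood at 0.68 ± 0.73 and miR-92a-3p at -0.08 ± 0.46, and neither passed.

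Of all 309 miRNAs edgeR called 0.324% for 4 days against healthy, 0.971% for hNSCs against control at 10 days, 0.647% for 10 against 4 days in the hNSCs group and 0% in the other 5 comparisons. At an unadjusted p under 0.05 there was 1 of the 7 erythroid miRNAs for 4 days against healthy, 1 for 10 against 4 days in the control group and 3 in the hNSCs group, and none in the rest. Of all 309 miRNAs there were 50 for 4 days against healthy, and for 10 against 4 days 73 in the control group and 31 in the hNSCs group. DESeq2 called 2 of the 7 for 10 against 4 days in the hNSCs group. The share of all miRNAs that DESeq2 called is not given, so nothing is read from this count. miR-486, which lies in Ank1, was at 1.05 to 32.0 CPM, and miR-16-5p at a mean of 207265 CPM in the healthy group.

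The log2 ratio of miR-451-5p to miR-23a-3p, in common use as a measure of red cell RNA in plasma, had a mean of -1.57 in the healthy group. In the control group it was -2.79, -1.16 and -2.27 at 4, 10 and 31 days, and in the hNSCs group -3.56, -0.87 and -1.35. miR-23a-3p itself stood at 2927 to 4932 CPM over the 21 libraries. Both 4-day groups had a lower mean ratio than the other 5 groups, but libraries overlapped. The control group ranged from -4.16 to -1.61 at 4 days and from -3.30 to -0.28 at 31 days. Its median was -2.61 at 4 days and lower, at -3.22, at 31 days. The healthy group ranged from -2.67 to -0.63. The part of red cell RNA in the levels of the 7 genes was not tested. In brain miR-451-5p had group means of 17.1 to 55.0 CPM.

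**Figure D5:**
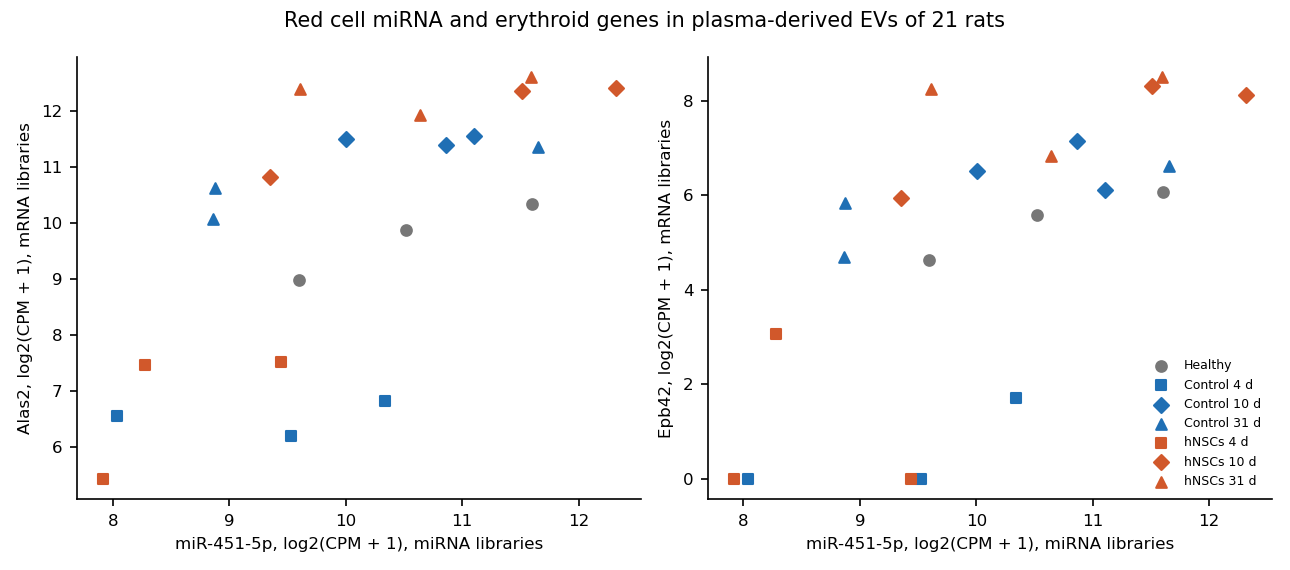
Level of miR-451-5p (x axis) against Alas2 and Epb42 (y axes) in the plasma EVs of the 21 rats, each as log2(CPM + 1), with 1 point for each rat, a colour for healthy, control and hNSCs rats and a shape for the day. The 6 libraries of 4 days lie at the low end of both genes, apart from the other 15.

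The 5 miRNAs most like the 7 genes by mean r over 21 rats were miR-106b-3p (0.742, and 0.561 centred within groups), miR-210-3p (0.703 and 0.192), miR-451-5p (0.685 and 0.579), miR-140-5p (0.675 and 0.565) and miR-93-5p (0.675 and 0.584). Since the 6 libraries of 4 days lie apart in the genes, the relation of each gene with each miRNA was tested within the other 15 and within these 6, a choice made after the data were seen. This made 2163 pairs in each, of which 49 hold an erythroid miRNA.

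Within the 15 libraries all 49 erythroid pairs had a positive r, at a median of 0.463 against -0.0109 over all pairs, and 18 of the 49 and 246 of the 2163 had an unadjusted permutation p under 0.05. None passed Benjamini-Hochberg adjustment over the 2163 pairs, by Pearson's r or by Spearman's rho. The 3 pairs that follow were chosen after their values were seen. For Epb42 and miR-144-3p, r was 0.659 (permutation p = 0.0086, adjusted p = 0.367) and rho 0.693 (permutation p = 0.00491), and without the 2 libraries farthest from the median of Epb42 r was 0.543. For Bpgm and miR-144-5p r was 0.69 (permutation p = 0.00503), and for Alas2 and miR-451-5p 0.513 (permutation p = 0.0505).

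Within the 6 libraries of 4 days 39 of the 49 erythroid pairs had a positive r, at a median of 0.254, and 2 of the 49 and 99 of the 2163 had an unadjusted exact permutation p under 0.05. None passed adjustment, the smallest exact p that 6 libraries allow being 0.00139. Over all 21 libraries together 65 pairs passed, 17 of them among the 49, and these counts include the step between the 4-day libraries and the rest.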

How the data were processed

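The deposited table of gene counts and the FPKM columns beside it were made by the authors with Bowtie2 on Rnor_6.0 and StringTie; versions, strand setting and the assignment of reads to genes are not given in the sources used here. The libraries came from a stranded total RNA kit without molecular identifiers, so reads are not independent molecules. The deposited miRNA table gives UMI counts and TPM values by the authors; only known miRNAs were used. A gene listed at 0 may be a failed estimate rather than an absence.

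Counts of annotated genes were filtered (filterByExpr), TMM-scaled and fitted over 7 groups per source with edgeR 4.0.16 (limma 3.58.1, DESeq2 1.42.0, R 4.3.3), without a replicate block, since same-numbered plasma and brain libraries did not deviate together within a source (median r -0.0063 in plasma mRNA and -0.0106 in brain). Hemoglobin genes were kept. CPM use TMM-scaled library sizes. Correlations used 100000 permutations (Python 3.11.15, scipy 1.17.1), two-sided, and were matched by rat. Scripts were tested on simulated data. The labels call the 3 samples of a group biological replicates.

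The 7 genes and the lists were chosen with earlier results of these data known. Beside the 7 genes, the text names up to 4 called genes with the lowest p in each list and comparison, up to 2 of the highest level where none was called, the 10 genes and 5 miRNAs most like the 7, and listed miRNAs with a mean of at least 10 CPM. Alternatives were DESeq2, other scalings and filters, limma on FPKM, fits of 2 groups, leaving out each replicate and a replicate block. Some genes of the lists are counted but not reported here by name.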

Additional observations from a re-analysis of the deposited data

How the results depend on the processing

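Of 692 counts and medians recomputed under an alternative, 614 stayed within 1.5 times or 1 SD, and the rest are given here. For 4 days against healthy the plasma median of the 7 genes, -3.44, was -4.34 (without control replicate 1) to -2.97 when 1 replicate was left out and -2.31 with limma on log2(FPKM + 1), with or without its filter. For 10 against 4 days the median of 4.96 was 4.92 to 5.90 in the control group when 1 replicate was left out, and limma gave 3.76 in the control and 4.10 in the hNSCs group.

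Of the 7 genes in plasma, 2 were called for 4 days against healthy, 1 to 2 when a replicate was left out (1 without control replicate 2 or 3 of day 4), 5 with DESeq2 and 0 with limma on log2(FPKM + 1), without the limma filter or with 2 groups. DESeq2 called 2 against 0 for 10 days against healthy and 3 against 0 for hNSCs against control at 31 days. For hNSCs against control at 4 days the count of 0 became 0 to 1 when a replicate was left out (hNSCs replicate 1) and 1 with DESeq2 or without a filter. For 10 against 4 days in the hNSCs group 4 became 0 with 2 groups. Of the other erythroid genes 3 were called for 4 days against healthy, 1 to 3 when a replicate was left out (1 without any control replicate of day 4), 9 with DESeq2, 5 without a filter, 1 with limma on log2(FPKM + 0.1), and 0 with the other limma settings or 2 groups. Against 0 with edgeR, DESeq2 called 14 for 10 days against healthy (12 higher, 2 lower; 8.25% of all genes called), 2 at 31 days (4.48%), and for hNSCs against control 2 at 10 days (7.76%) and 9 at 31 days (5 higher, 4 lower; 11.3%), and it called 26 against 11 for 10 against 4 days in the control group (24 higher, 2 lower; 10.2%). For hNSCs against control at 4 days 0 became 0 to 1 when a replicate was left out (each hNSCs replicate), 3 with DESeq2 and 1 without a filter. For the hNSCs group at 10 against 4 days 15 became 0 with 2 groups and 10 to 16 when a replicate was left out.

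In brain, DESeq2 called 2 of the 5 genes against 0 for 4 days against healthy and 1 for 10 against 4 days in either group, limma called 4, 3 and 3 for 31 days against healthy, and leaving out hNSCs replicate 1 of day 10 moved 0 to 1 for that group against control or against 4 days. Of the lists in brain, 4 days against healthy moved from 0 to 2 (DESeq2, 2 groups), 3 and 1 (limma) and 1 (no filter). The 1 call at 10 days against healthy became 3 with DESeq2, and 0 with limma, with 2 groups, with hemoglobin left out, or without control replicate 2 or 3 of day 10 or any healthy replicate. At 31 days limma called 32, 24 and 24. With limma on log2(FPKM + 1) 66.1% of all genes were called in this comparison, so nothing is read from the limma counts at 31 days, for the 5 genes or for the lists. Counts in this paragraph without the share of all genes beside them are likewise not read as a result. DESeq2 called 1 and 2 for hNSCs against control at 4 and 10 days and 4 for 10 against 4 days in the hNSCs group. Leaving out a replicate gave 0 to 2 at 10 days against control (control replicate 1, hNSCs replicate 1) and 0 to 3 for 10 against 4 days (hNSCs replicate 1), where limma on log2(FPKM + 0.1) called 1. For control rats at 31 days against healthy in brain, limma turned Sptb from -0.07 to 1.96, 1.44 and 1.44 and Ank1 from -0.50 to 1.52, 1.00 and 1.00. Of the erythroid miRNAs for 10 against 4 days in the hNSCs group, DESeq2 called 2 and no filter 3 against 0, without the shares of all miRNAs beside them. The median r of erythroid pairs was 0.254 within the 6 libraries of 4 days and 0.463 within the other 15. The cause of these changes was not tested.

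The replicate numbers pair no samples. With the replicate block, 4 of the 7 genes and 10 of the lists were called for 10 against 4 days in the control group, and the 1 list call in brain became 0. In the brain libraries of the hNSCs group at 10 days, which had the fewest annotated counts, depth limits the values of low genes.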
